A study of Mus musculus with 6 samples.

Results

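The genes described here are 36 mouse genes of the folding machinery of the endoplasmic reticulum (ER) and of its stress response, the unfolded protein response. They were chosen by name, with no measured value in the rule, but with earlier results of these data known. The choice took in the sensors and transcription factors of the response, ER chaperones and their cofactors, thiol oxidoreductases, the translocon and ER-associated degradation (ERAD). By the rule of the choice, targets of the factor ATF4 were left out. Whether any of the 36 also responds to ATF4 was not checked. The array carried 36 of 36 on 44 of its 26423 probes, among 19084 genes with a symbol. Of the 36, 34 were bright enough to be tested, among 15459 genes in all.

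Expression was measured on 6 one-colour Cy5 microarrays of gonadal cells from mice of strain ICR, 2 arrays in each of 3 groups. For the PGC colony group (PGC is spelled out in the labels as primordial germ cells), gonads of 67 embryos at E11.5 were dissociated and cultured, and colonies were picked for RNA after 7 days at 5% O2. For the GSC colony group (GSC is spelled out as glandular stem cells), testes of 80 mice between birth and P2 were dissociated and cultured for the same time at the same oxygen level, and colonies were again picked. Both cultures stood on laminin at 200 ng/cm2, in a basal medium with EGF (epidermal growth factor, 10 ng/ml), insulin, transferrin and selenium. The CD49f+ sorted group held testicular cells of 100 mice between birth and P2 that were taken by magnetic sorting with an antibody to CD49f (the integrin subunit encoded by Itga6) and were never cultured. Its labels name physiological hypoxia and give no oxygen value. Culture, the picking of colonies and the sort differ together between both colony groups and the sorted group, so they cannot be told apart, and embryonic stage is added for PGC colonies. Nothing in the labels tells if each array had a cell preparation of its own, so a p-value here covers no more than array-to-array spread. Precision is limited by how few arrays there are.

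Proteins that are secreted or sit in membranes enter the ER through the Sec61 translocon, where chaperones, sugar-binding lectins and disulfide isomerases fold them. Proteins that fail to fold are returned to the cytosol and destroyed by ERAD. When unfolded proteins build up, the sensors IRE1 (gene Ern1), PERK (Eif2ak3) and ATF6 respond: IRE1 splices the Xbp1 mRNA, PERK slows translation, and ATF6 is cut free from the membrane. Spliced XBP1 and cut ATF6 then switch on chaperone and ERAD genes through promoter elements such as the ER stress response element (ERSE). Cells with a heavy secretory load, such as fibroblasts that make collagen, are known to hold much of this machinery.

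Such elements were looked for in the promoters of the 36 genes. RefSeq promoter windows of build GRCm38.p6 (250 bases before to 50 after a start site) were at hand for 28 of the 36 genes. The others are Manf, Hspa13, Creb3l1, Sil1, Hyou1, Derl1, Atf6 and Sec61a1. Both strands were searched for ERSE (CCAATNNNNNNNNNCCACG), ERSE-II (ATTGGNCCACG) and the unfolded protein response element UPRE (TGACGTGG); none of the ERSE and ERSE-II matches printed here overlap another. ERSE was found in 9 of the 28 genes (32.1%), against 0.137% of all 27025 genes with a window. ERSE-II was found in Herpud1 and Dnajb11 (7.14% of the 28), against 0.0444% of genes. The Dnajb11 match lies past the start site, at positions 8 to 18, and is not printed. The UPRE letters were in 0 of the 28, against 0.714% of genes. The 36 were chosen as genes of ER folding and of the response that acts through such elements, so these shares are no independent result. A match is a description of letters and was not shown to be a bound site. The matches that lie before a start site are given with 10 bases on each side, 5′ to 3′ along the gene's own strand, because the values of these genes are set beside them further on. Capitals mark the fixed letters of the element, which read CGTGG and ATTGG where the match lies on the other strand.
Hspa5 (chr2:34772015-34772053, plus strand): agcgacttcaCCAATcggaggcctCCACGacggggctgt
Pdia6 (chr12:17266481-17266519, plus strand): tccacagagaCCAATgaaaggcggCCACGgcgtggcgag
Dnajc3 (chr14:118937817-118937855, plus strand): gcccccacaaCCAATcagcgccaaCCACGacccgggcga
Syvn1 (chr19:6046522-6046560, plus strand): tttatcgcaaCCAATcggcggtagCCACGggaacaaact
Canx (chr11:50325790-50325828, minus strand): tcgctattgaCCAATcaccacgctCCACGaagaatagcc
Hsp90b1, farther match (chr10:86705628-86705666, minus strand): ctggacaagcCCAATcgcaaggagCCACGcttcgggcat
Hsp90b1, nearer match (chr10:86705523-86705561, minus strand): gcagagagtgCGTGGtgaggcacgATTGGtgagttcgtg
Calr (chr8:84847065-84847103, minus strand): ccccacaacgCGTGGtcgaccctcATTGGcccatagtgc
Creld2 (chr15:88819510-88819548, plus strand): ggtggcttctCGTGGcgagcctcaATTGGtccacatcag
Derl3 (chr10:75893232-75893270, plus strand): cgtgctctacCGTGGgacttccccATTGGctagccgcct
Herpud1, ERSE-II (chr8:94386367-94386397, plus strand): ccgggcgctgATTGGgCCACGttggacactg

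Arrays and cell types were checked before the genes were compared. Median deposited intensities were 541 to 587 on PGC colony arrays, 558 to 606 on GSC colony arrays and 393 to 406 on sorted arrays. Values are given below as normalized log2 intensities, on which 7.82 was the level a gene had to reach on at least 2 of the 6 arrays to be tested. Levels of different genes are not compared, since each probe has its own response. Itga6 averaged 12.39 in PGC colonies, 11.81 in GSC colonies and 12.18 in sorted cells. It was 0.37 ± 0.12 (SE) lower in GSC colonies than in sorted cells (adjusted p = 0.0415) and 0.21 ± 0.12 higher in PGC colonies (adjusted p = 0.198), and since no unsorted cells were on the arrays this does not check the sort. The mean of 9 germ cell markers was 8.41 and 8.48 on PGC colony arrays, 9.45 and 9.29 on GSC colony arrays, and 8.67 and 8.76 on sorted arrays. Dppa3 and Sall4 lay under 7.82 in each group, Dazl under it in PGC colonies, and Zbtb16 under it in PGC colonies and sorted cells. Of the 7 tested, 0 passed as higher (0 also at an unadjusted p under 0.05 by limma) and 2 as lower in PGC colonies. In GSC colonies 4 passed as higher, Dazl at 1.45 ± 0.18, Pou5f1 at 0.91 ± 0.11, Tex101 at 0.52 ± 0.14 and Zbtb16, tested through GSC colonies alone, at least 6.17-fold. The 1 that passed as lower there was Dnd1 (-0.92 ± 0.15, adjusted p = 0.00278), which also fell in PGC colonies (-1.26 ± 0.15, adjusted p = 0.000733). Marker counts stand beside 22.8% of all genes tested higher and 23.2% lower in PGC colonies. In GSC colonies these shares were 22.5% and 24.5%. The mean of 11 fibroblast markers was 14.07 and 14.16 on PGC colony arrays, 14.50 and 14.54 on GSC colony arrays, and 10.57 and 10.53 on sorted arrays, with Col1a1 dim in each group. The mean of 8 leukocyte markers was 9.20 and 9.19 in PGC colonies, 8.07 and 7.84 in GSC colonies, and 13.05 and 13.09 in sorted cells. The mean of 9 Sertoli cell markers was 11.59 and 11.57 in PGC colonies, 11.52 and 11.27 in GSC colonies, and 14.21 and 14.20 in sorted cells. The mean of 5 peritubular myoid and smooth muscle markers was 9.90 and 9.87 in PGC colonies, 11.68 and 11.65 in GSC colonies, and 8.68 and 8.71 in sorted cells. Of 4 tested, 3 were higher and 1 lower in PGC colonies and 4 of 4 higher in GSC colonies. Among the higher ones, 1 was dim in sorted cells and was tested through the colonies alone. Without it 2 of 3 were higher in PGC colonies and 3 of 3 in GSC colonies. Endothelial markers averaged 9.54 and 9.57 in PGC colonies, 10.13 and 10.15 in GSC colonies, and 12.07 and 12.05 in sorted cells, with 6 of 6 lower in PGC colonies, and 5 lower and 1 higher in GSC colonies. Means of Leydig and erythroid markers were also lower on each of the 4 colony arrays, and of 7 epithelial and mesothelial markers 6 passed as lower in PGC colonies, and 4 as lower and 2 as higher in GSC colonies. So mean levels of fibroblast and myoid markers were higher, and those of leukocyte, Sertoli, endothelial, Leydig and erythroid markers lower, on each of the 4 colony arrays. In these bulk samples fewer cells of a type and less RNA per cell cannot be told apart, and the part of these shifts in the results below was not tested.

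Most of the ER genes were higher in colonies of both kinds than in sorted cells. In PGC colonies 22 of the 34 tested genes rose against sorted cells, where 22.8% of all genes tested did, and 3 fell, where 23.2% of all genes did. In GSC colonies 21 of 34 rose against sorted cells, beside 22.5% of all genes, and 1 fell, beside 24.5%. A gene was called to rise or fall at an adjusted p under 0.05 in limma's moderated test, adjusted over all genes. Both comparisons use the same sorted arrays, so their results are given side by side and not as support for each other. The 36 genes were chosen with earlier results of these data known, so these counts are a description only. The median difference of the 34 genes was 0.74 on the log2 scale in PGC colonies and 0.71 in GSC colonies, against -0.02 and -0.01 for all genes tested. Rises of at least 2-fold numbered 12 in PGC colonies, beside 9.22% of all genes tested, and 10 in GSC colonies, beside 10.1%. One of the 34, Pdia3, was tested through the colonies alone. Without it 21 and 20 of 33 rose, with medians of 0.70 in each. With no brightness filter 22 and 21 of the 36 rose, beside 18.7% of all genes in each comparison. Named by role, the 21 genes that rose in both were Xbp1, Eif2ak3, Creb3l1 and Wfs1 among sensors and factors, Hyou1, Manf and Calr among chaperones, Dnajb11, Dnajc3 and Sdf2l1 among J proteins and their partner, Pdia3, Pdia4, Pdia6, P4hb and Creld2 among oxidoreductases, Sec61a1 and Sec61b of the translocon, and Herpud1, Sel1l, Syvn1 and Edem1 of ERAD.

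**Figure D1:**
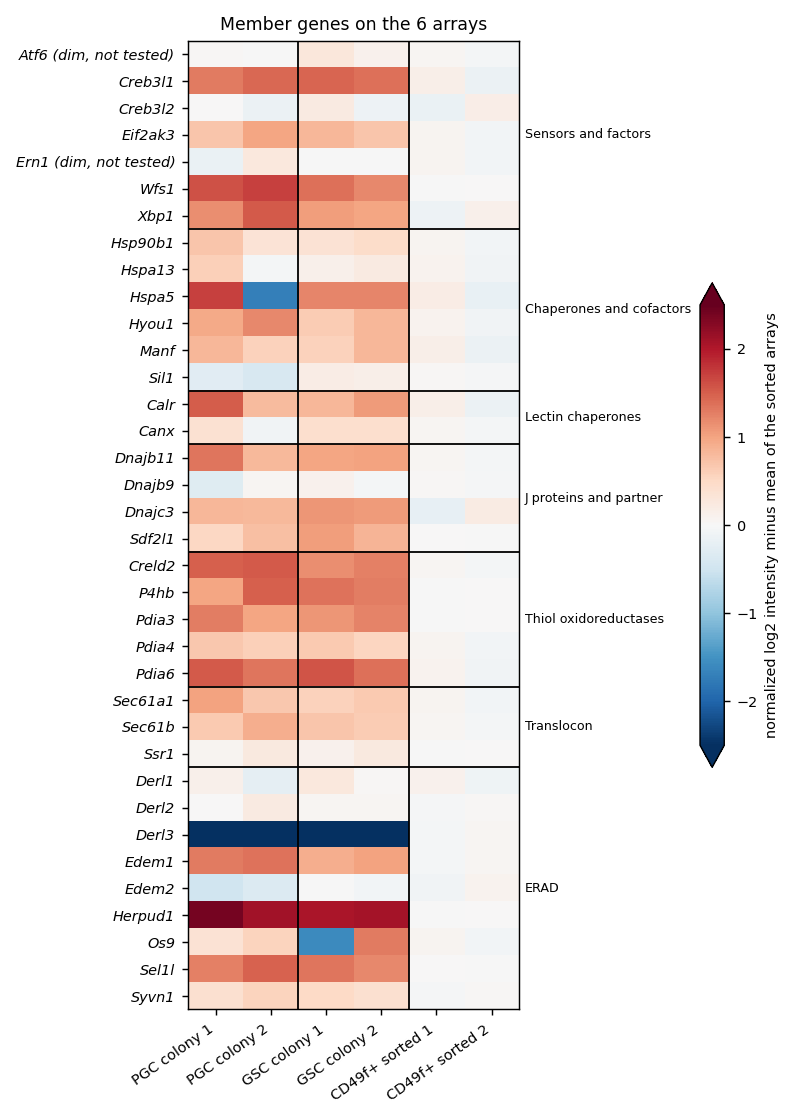
Each column is an array and each row one of the 36 genes, and colour gives the normalized log2 intensity minus the mean of both sorted arrays (red higher, blue lower, cut at 2.5). The 4 colony arrays are red for most genes, Derl3 is blue on each of them, and Hspa5 on PGC colony replicate 2 and Os9 on GSC colony replicate 1 stand apart from their partner arrays.

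Without normalization between arrays the median of all genes tested stood at 0.42 in PGC colonies and 0.47 in GSC colonies, and the split of all genes became 7573 higher and 1838 lower in PGC colonies and 8179 higher and 1732 lower in GSC colonies, where it had been 3517 and 3594, and 3486 and 3793. On that scale 26 and 31 of the 34 ER genes were higher, and their medians of 1.22 and 1.27 are to be read against that shift. Creb3l2 (0.57) and Dnajb9 (0.55), which did not pass after normalization, passed there as higher in GSC colonies. Ssr1 (0.68 and 0.77) and Hspa13 (0.78 and 0.72) did so in PGC and GSC colonies. Leaving out sorted replicate 2 left 17 genes higher in PGC colonies and 16 in GSC colonies, where 17.3% and 17.8% of all genes were higher in the same fits.

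Among sensors and factors, the mRNA of the factor XBP1 was higher in colonies and those of the sensors ATF6 and IRE1 were too dim to test. Xbp1 had 15.73 and 16.11 on PGC colony arrays, 15.62 and 15.56 on GSC colony arrays, and 14.44 and 14.70 on sorted arrays. Each colony array lay above both sorted arrays. Its rise was 1.35 ± 0.16 in PGC colonies (2.55-fold, adjusted p = 0.000843) and 1.02 ± 0.16 in GSC colonies (2.02-fold, adjusted p = 0.00287). The array does not separate spliced from unspliced Xbp1 here, so it gives total mRNA and not activity of the pathway. Atf6 lay between 7.18 and 7.49 and Ern1 between 7.11 and 7.53 over the 6 arrays, under the level for testing on each. Eif2ak3, which encodes the kinase PERK, rose by 0.84 ± 0.14 in PGC colonies and by 0.77 ± 0.14 in GSC colonies (adjusted p = 0.00352 and 0.00506).

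Of the membrane factors related to ATF6, Creb3l1 rose in both kinds of colony and Creb3l2 passed in neither. Creb3l1, whose product OASIS is cut like ATF6 and is known to drive collagen genes in bone cells, had 10.78 and 10.92 in PGC colonies, 10.95 and 10.86 in GSC colonies, and 9.64 and 9.34 in sorted cells. Its groups did not overlap, and it rose by 1.36 ± 0.14 in PGC colonies (adjusted p = 0.000389) and by 1.42 ± 0.14 in GSC colonies (adjusted p = 0.000317). Its relative Creb3l2 had overlapping groups, with differences of -0.07 ± 0.18 and 0.06 ± 0.18 that did not pass. Wfs1 encodes wolframin, an ER membrane protein known to restrain ATF6 and to keep ER calcium. It had 11.18 and 11.30 in PGC colonies, 10.97 and 10.80 in GSC colonies, and 9.58 and 9.60 in sorted cells, and rose by 1.65 ± 0.12 (3.14-fold, the largest rise among the sensors and factors there) in PGC colonies and by 1.30 ± 0.12 (2.46-fold) in GSC colonies.

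**Figure D2:**
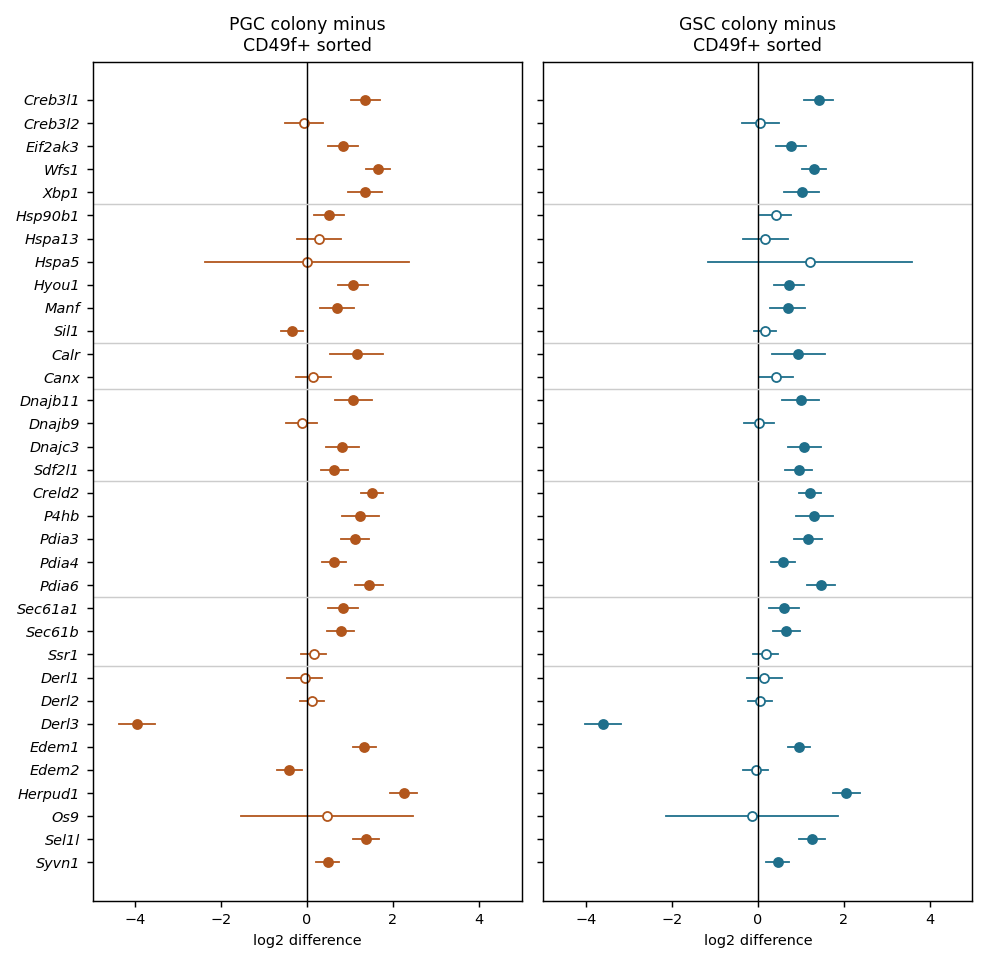
Points are log2 differences of PGC colonies (left) and GSC colonies (right) from sorted cells for the 34 tested genes, bars are 95% confidence intervals and filled points passed an adjusted p under 0.05. Most points lie between 0 and 2, Herpud1 lies highest at 2.25 and 2.06, Derl3 lowest at -3.97 and -3.61, and Hspa5 and Os9 have by far the widest intervals.

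Hspa5 encodes BiP, the central Hsp70 chaperone of the ER and the usual readout of ER stress. It could not be placed in PGC colonies, since its arrays there disagreed, while both GSC colony arrays lay above both sorted arrays. Its only probe read 16.20 on PGC colony replicate 1 and 12.77 on replicate 2, against 15.69 and 15.70 in GSC colonies and 14.66 and 14.30 in sorted cells. The same gap stood in the deposited intensities, 81950 and 7788 on the PGC colony arrays, 66811 and 68145 on the GSC colony arrays, and 18683 and 15225 on the sorted arrays. PGC colony replicate 1 was thus the brightest of the 6 arrays and replicate 2 the dimmest. A gap as large between both PGC colony arrays occurred in 0.0259% of genes tested. With all 6 arrays the difference from sorted cells was 1.21 ± 0.98 in GSC colonies (adjusted p = 0.358), and in PGC colonies both means were 14.48 (adjusted p = 1.00). Without PGC colony replicate 2 Hspa5 was higher than in sorted cells by 1.72 in PGC colonies (adjusted p = 0.0030) and by 1.23 in GSC colonies (adjusted p = 0.0033). Without PGC colony replicate 1 it was lower in PGC colonies, at -1.72 (adjusted p = 0.00299), while the GSC colony value passed as higher (1.21, adjusted p = 0.00336). In a fit of GSC colony and sorted arrays alone Hspa5 was 1.21 ± 0.14 higher in GSC colonies (adjusted p = 0.00341). Whether a PGC colony array is in error or the colonies themselves differed was not tested.

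**Figure D3:**
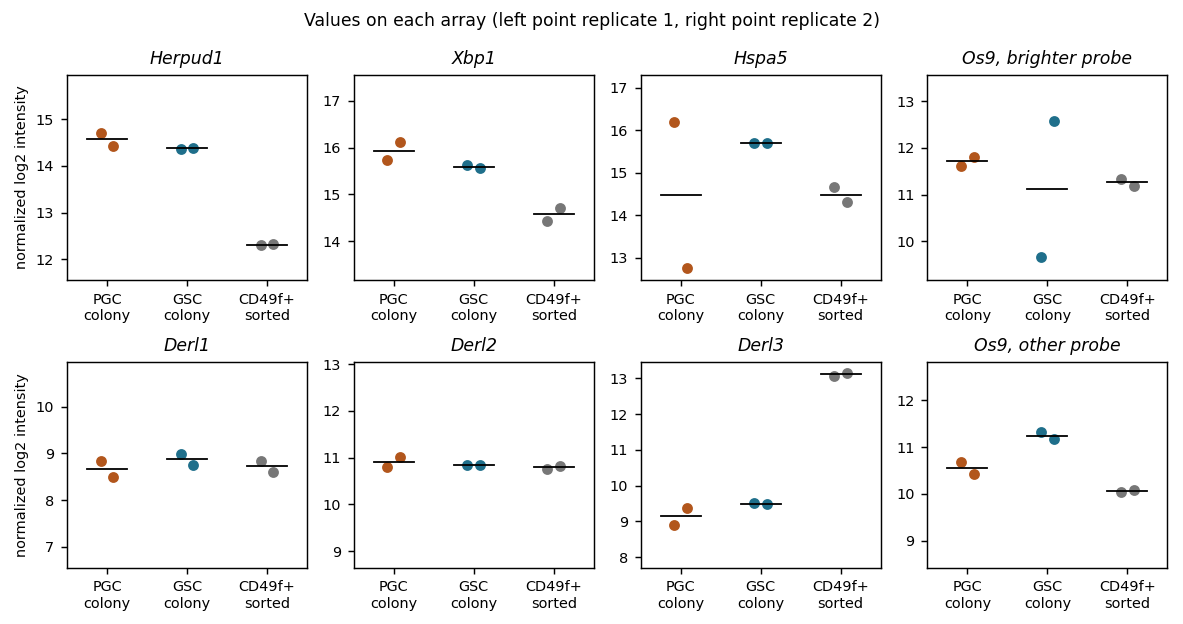
Each point is an array (left replicate 1, right replicate 2) and each line a group mean of normalized log2 intensity. Herpud1 and Xbp1 lie higher on each colony array than in sorted cells, Derl3 lies lower, Derl1 and Derl2 lie near the sorted arrays on this scale, and the arrays of a pair lie 3.43 apart for Hspa5 in PGC colonies and 2.89 apart for the brighter Os9 probe in GSC colonies but close together for the other Os9 probe.

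Of the other 5 chaperones and cofactors of BiP, Hyou1 and Manf rose in both kinds of colony and Hsp90b1 in PGC colonies. Hyou1, an exchange factor that frees ADP from BiP and a chaperone of its own, had 9.52 and 9.77 in PGC colonies, 9.20 and 9.40 in GSC colonies, and 8.66 and 8.48 in sorted cells, and rose by 1.08 ± 0.14 and 0.73 ± 0.14. Manf, a small secreted protein that binds BiP, rose by 0.70 ± 0.17 in each (adjusted p = 0.0149 in PGC colonies and 0.0148 in GSC colonies). Those calls were lost without sorted replicate 2 (adjusted p = 0.093 and 0.092), without PGC colony replicate 1 for PGC colonies (0.0773) and without GSC colony replicate 2 for GSC colonies (0.0536). Hsp90b1, which encodes the ER form of Hsp90, had 14.97 and 14.62 in PGC colonies, 14.65 and 14.73 in GSC colonies, and 14.35 and 14.21 in sorted cells. It rose in PGC colonies (0.51 ± 0.15, adjusted p = 0.0306) and did not pass in GSC colonies (0.41 ± 0.15, adjusted p = 0.0637). The GSC value did pass in a fit of GSC colony and sorted arrays alone (0.41, adjusted p = 0.0258). It also passed with median centring (0.72, adjusted p = 0.00544) and without normalization between arrays (1.14). The difference between both colony groups was 0.10 ± 0.15 (adjusted p = 0.70), so a response in one kind of colony only was not shown. The call in PGC colonies was lost without PGC colony replicate 1 (adjusted p = 0.0847) or either sorted array (0.0765 and 0.153), and the GSC value passed without either PGC colony array (0.026 and 0.0251). Sil1, the other exchange factor of BiP, ran the other way in PGC colonies, with 13.43 and 13.33 there, 13.92 and 13.86 in GSC colonies, and 13.75 and 13.69 in sorted cells. Hspa13, an Hsp70 relative of the ER, differed by 0.28 ± 0.22 and 0.17 ± 0.22 and did not pass, though without PGC colony replicate 2 it was 0.60 higher in PGC colonies (adjusted p = 0.0217).

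The lectin chaperones hold new glycoproteins until they are folded. Calr (calreticulin) had 13.89 and 13.17 in PGC colonies, 13.21 and 13.43 in GSC colonies, and 12.53 and 12.22 in sorted cells, and rose by 1.15 ± 0.25 and 0.95 ± 0.25 (adjusted p = 0.0104 and 0.0225). Both calls were lost without sorted replicate 2 (adjusted p = 0.0605 and 0.112). Canx (calnexin), its membrane-bound relative, differed by 0.15 ± 0.16 in PGC colonies and 0.42 ± 0.16 in GSC colonies and did not pass (adjusted p = 0.516 and 0.0804). A dimmer Canx probe did pass, at 0.34 ± 0.10 and 0.62 ± 0.10 (adjusted p = 0.0394 and 0.00383), so the call for Canx depends on the probe. In GSC colonies the brighter probe passed with median centring (0.66, adjusted p = 0.00921) and without normalization between arrays (1.08). A fit of GSC colony and sorted arrays alone also gave it a call (0.42, adjusted p = 0.0156). The dimmer probe's call in PGC colonies was lost without any array but PGC colony replicate 2 (adjusted p = 0.0835 to 0.185), and its call in GSC colonies held without each array. The brighter probe passed in GSC colonies without either PGC colony array (adjusted p = 0.0153 and 0.0151) and in PGC colonies without their replicate 2 (0.044).

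J proteins bring clients to BiP and set off its ATPase. Dnajb11 (ERdj3) had 14.01 and 13.49 in PGC colonies, 13.65 and 13.68 in GSC colonies, and 12.71 and 12.62 in sorted cells, a rise of 1.08 ± 0.18 and 1.00 ± 0.18. A second probe gave 1.19 and 0.99 and passed, and a dim one gave 0.17 and 0.23 and did not. Dnajc3 (p58IPK) rose by 0.82 ± 0.16 in PGC colonies and 1.09 ± 0.16 in GSC colonies, and Sdf2l1, a partner of ERdj3, by 0.63 ± 0.13 (adjusted p = 0.0504 without sorted replicate 2) and 0.95 ± 0.13. Dnajb9 (ERdj4), known to hold IRE1 inactive through BiP, had 10.47 and 10.81 in PGC colonies, 10.87 and 10.72 in GSC colonies, and 10.79 and 10.75 in sorted cells. The groups overlapped, and the differences of -0.13 ± 0.15 (95% interval -0.48 to 0.23) and 0.02 ± 0.15 (-0.33 to 0.38) did not pass.

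Thiol oxidoreductases form and reshuffle disulfide bonds. The 4 that were bright in sorted cells, P4hb, Pdia6, Creld2 and Pdia4, rose in both kinds of colony, with medians of 1.34 and 1.26. P4hb encodes protein disulfide isomerase, which is also a subunit of the prolyl hydroxylase of collagen. It had 16.11 and 16.63 in PGC colonies, 16.48 and 16.41 in GSC colonies, and 15.12 and 15.15 in sorted cells, a rise of 1.24 ± 0.18 (2.36-fold) and 1.32 ± 0.18 (2.49-fold). Pdia6 had 12.52 and 12.32 in PGC colonies, 12.56 and 12.36 in GSC colonies, and 11.06 and 10.90 in sorted cells. It rose by 1.43 ± 0.14 and 1.48 ± 0.14 (adjusted p = 0.000276 and 0.00024), whereas a dimmer probe of it gave 0.48 ± 0.14 (adjusted p = 0.0335) and 0.13 ± 0.14 (adjusted p = 0.514). That probe's call was lost without PGC colony replicate 2 (0.116) or either sorted array (0.0681 and 0.178). Creld2, a small ER protein known to rise under ER stress, had 12.75 and 12.80 in PGC colonies, 12.43 and 12.53 in GSC colonies, and 11.32 and 11.21 in sorted cells, and rose 2.85-fold and 2.32-fold. Pdia3 (ERp57), which works with both lectins, was under the testing level on both sorted arrays, and was at least 1.97-fold higher in PGC colonies and at least 2.04-fold higher in GSC colonies (adjusted p = 0.000813 and 0.000661). It passed the brightness filter only through the colonies. Pdia4 (ERp72) rose by 0.63 ± 0.11 and by 0.59 ± 0.11 (adjusted p = 0.0513 for GSC colonies without sorted replicate 2).

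In the translocon, Sec61a1, the gene of the channel itself, had 14.39 and 14.05 in PGC colonies, 13.97 and 14.05 in GSC colonies, and 13.46 and 13.32 in sorted cells, and rose by 0.83 ± 0.14 and by 0.62 ± 0.14 (adjusted p = 0.0855 for GSC colonies without sorted replicate 2). Sec61b, of a small subunit of the channel, rose by 0.78 ± 0.13 and 0.67 ± 0.13. Ssr1, of the TRAP complex beside the channel, differed by 0.16 ± 0.12 and 0.18 ± 0.12 and did not pass.

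ERAD held both the largest rise and the largest fall of the 34 genes. Herpud1 encodes a membrane protein that gathers the HRD1 ubiquitin ligase complex. It had 14.71 and 14.42 in PGC colonies, 14.36 and 14.39 in GSC colonies, and 12.31 and 12.32 in sorted cells. The 4 colony arrays lay close to one another and far above both sorted arrays. It rose by 2.25 ± 0.13 (4.76-fold, adjusted p = 3.57e-05) and by 2.06 ± 0.13 (4.17-fold, adjusted p = 4.53e-05), and 2.79% and 3.6% of genes tested had a difference as high. Of the ligase itself, Syvn1 (HRD1) rose by 0.48 ± 0.11 and 0.46 ± 0.11, calls that were lost without either sorted array (adjusted p = 0.067 to 0.0974) and, for GSC colonies, without either of their own arrays (0.107 and 0.0503). Its adaptor Sel1l had 11.92 and 12.14 in PGC colonies, 11.99 and 11.86 in GSC colonies, and 10.67 and 10.65 in sorted cells, and rose by 1.37 ± 0.12 and 1.27 ± 0.12.

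The derlins are membrane proteins through which ERAD substrates leave the ER. Derl3 had 8.90 and 9.38 in PGC colonies, 9.51 and 9.49 in GSC colonies, and 13.06 and 13.16 in sorted cells. In deposited intensities this was 501 and 653 in PGC colonies, 794 and 750 in GSC colonies, and 6309 and 7101 in sorted cells. No colony array came near the sorted arrays. It fell by 3.97 ± 0.17 on the log2 scale in PGC colonies (adjusted p = 1.3e-05) and by 3.61 ± 0.17 in GSC colonies (adjusted p = 1.52e-05), and kept this call under each alternative run. Derl1 had 8.84 and 8.50 in PGC colonies, 9.00 and 8.75 in GSC colonies, and 8.84 and 8.61 in sorted cells, and Derl2 had 10.81 and 11.02, 10.84 and 10.83, and 10.76 and 10.82 in the same groups. Neither passed, with 95% intervals of -0.46 to 0.36 and -0.26 to 0.56 for Derl1 and -0.16 to 0.40 and -0.24 to 0.33 for Derl2. Without normalization between arrays, where the median gene also moved up, Derl2 passed as higher (0.60 and 0.57) and so did Derl1 in GSC colonies (0.55). Leukocyte, Sertoli, endothelial, Leydig and erythroid markers were also lower in colonies, and their part in the fall of Derl3 was not tested.

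The proteins that mark glycoproteins for ERAD differed as well. Edem1, which trims mannose from substrates, had 12.74 and 12.80 in PGC colonies, 12.34 and 12.45 in GSC colonies, and 11.39 and 11.48 in sorted cells, and rose 2.52-fold and 1.95-fold. Edem2, which in human cells makes the first cut of that trimming, had 12.16 and 12.32 in PGC colonies, 12.64 and 12.58 in GSC colonies, and 12.57 and 12.74 in sorted cells. It fell in PGC colonies by 0.42 ± 0.12 on the log2 scale (adjusted p = 0.0303), though without normalization between arrays the sign turned (0.11). The call was lost with median centring (adjusted p = 0.133), with the mean of both probes (-0.15, adjusted p = 0.267), without either sorted array (0.0656 and 0.182) and without PGC colony replicate 1 (0.0875), and its second, dim probe gave 0.12 ± 0.10 there (adjusted p = 0.433). In GSC colonies that probe passed as higher (0.34 ± 0.10, adjusted p = 0.0381), a call lost without either GSC colony array (0.116 and 0.221) or either sorted array (0.168 and 0.139), while the brighter probe differed by -0.05 ± 0.12 (adjusted p = 0.786). Os9, a lectin that hands trimmed substrates to SEL1L, had a brighter probe with 11.62 and 11.81 in PGC colonies, 9.68 and 12.57 in GSC colonies, and 11.34 and 11.19 in sorted cells. In PGC colonies this probe differed from sorted cells by 0.46 ± 0.83 (adjusted p = 0.70). In a fit of PGC colony and sorted arrays alone it passed as higher (0.46 ± 0.15, adjusted p = 0.0354). Without GSC colony replicate 1 it was 1.29 higher in GSC colonies than in sorted cells (adjusted p = 0.000397), and without replicate 2 it was lower, at -1.58 (adjusted p = 0.000109). The other Os9 probe had 10.68 and 10.43 in PGC colonies, 11.33 and 11.16 in GSC colonies, and 10.04 and 10.09 in sorted cells, with no overlap. By that probe Os9 rose by 0.50 ± 0.13 in PGC colonies (adjusted p = 0.0249) and by 1.18 ± 0.13 in GSC colonies (adjusted p = 0.000694). The PGC colony call was lost without either sorted array (adjusted p = 0.119 and 0.093) or PGC colony replicate 1 (0.0774).

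Few of these genes differed between PGC colonies and GSC colonies. Of the 34 tested, 0 were higher in PGC colonies by limma, where 7.08% of all genes were, and 1 was lower, where 7.98% of all genes were. At an unadjusted p under 0.05 there were 3 higher and 2 lower, where 15.6% and 14.3% of all genes were. The median difference was 0.03. The gene that passed by its brightest probe was Sil1, 0.51 ± 0.11 lower in PGC colonies than in GSC colonies (adjusted p = 0.0249), with no overlap of the groups. Against sorted cells Sil1 fell by 0.34 ± 0.11 on the log2 scale in PGC colonies (adjusted p = 0.0388; without normalization between arrays the sign turned, at 0.22) and differed by 0.17 ± 0.11 in GSC colonies (adjusted p = 0.245). With median centring the call in PGC colonies was lost (-0.18, adjusted p = 0.212) and Sil1 passed as higher in GSC colonies (0.41, adjusted p = 0.0173), as it did without normalization between arrays (0.83, adjusted p = 0.000743). The calls of Sil1 between colonies and in PGC colonies against sorted cells were near the threshold and were lost when the fit held only the groups at issue (adjusted p = 0.0643 and 0.0836) or left out any array but PGC colony replicate 1 (0.0635 to 0.151, and 0.0828 to 0.186). Single arrays also added calls: without PGC colony replicate 1, Hspa5 (-2.94, adjusted p = 0.00406) and Canx (-0.50, adjusted p = 0.0499) passed as lower in PGC colonies, as did Derl3 without PGC colony replicate 2 (-0.59, adjusted p = 0.0432). The brighter Os9 probe passed as lower without GSC colony replicate 1 (-0.84, adjusted p = 0.020) and as higher without GSC colony replicate 2 (2.04). The other Os9 probe, whose arrays lay close together, was 0.69 ± 0.13 lower in PGC colonies than in GSC colonies with all arrays (adjusted p = 0.0220). That call was lost without GSC colony replicate 1 (0.101), PGC colony replicate 2 (0.0762) or either sorted array (0.0551 and 0.0539). With all arrays, next by the brightest probe came Edem1 (0.37 ± 0.11, adjusted p = 0.0714), Edem2 (-0.37 ± 0.12, adjusted p = 0.0957) and Wfs1 (0.35 ± 0.12, adjusted p = 0.0972), which did not pass. The 95% interval for Xbp1 ran from -0.06 to 0.74, so likeness of both kinds of colony was not shown. Markers differed between the same groups, with 4 of 7 germ cell and 4 of 4 myoid markers lower and 7 of 8 leukocyte markers higher in PGC colonies than in GSC colonies, and their part was not tested. Without the leukocyte markers that were dim in GSC colonies, 4 of 5 were higher. Zbtb16, among the lower germ cell markers, was tested through GSC colonies alone.

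The values were also set beside the promoters printed above, with no test of the difference between genes with and without an element. Of 11 tested genes with ERSE or ERSE-II in the window, 8 rose and 1 fell in PGC colonies, and 7 rose and 1 fell in GSC colonies, with medians of 0.82 and 1.00. Of 16 with a window and neither element, 10 rose in each kind of colony and 1, Edem2, fell in PGC colonies, with medians of 0.71 and 0.72. Over all genes tested 22.8% rose and 23.2% fell in PGC colonies, and 22.5% and 24.5% in GSC colonies. Herpud1, with ERSE-II 52 to 42 bases before its start site, rose most, and Derl3, with ERSE 156 to 138 bases before its start site, fell most. The 200 bases before both start sites are shown because these genes mark the ends of the range, with the fixed letters of the element in capitals.
Herpud1 (chr8:94386229-94386428, plus strand): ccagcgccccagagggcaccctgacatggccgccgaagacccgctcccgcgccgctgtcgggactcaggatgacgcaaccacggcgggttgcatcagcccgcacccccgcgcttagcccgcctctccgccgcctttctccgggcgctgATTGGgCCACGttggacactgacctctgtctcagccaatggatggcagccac
Derl3 (chr10:75893198-75893397, plus strand): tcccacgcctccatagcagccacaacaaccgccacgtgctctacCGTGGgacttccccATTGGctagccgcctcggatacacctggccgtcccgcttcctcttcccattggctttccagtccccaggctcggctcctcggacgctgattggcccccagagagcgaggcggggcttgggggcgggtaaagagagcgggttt

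**Figure D4:**
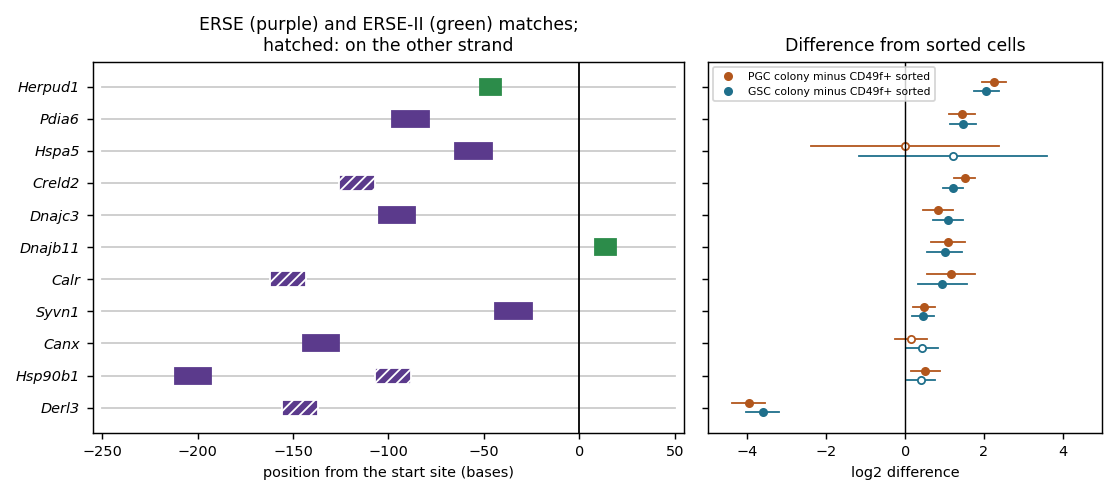
Left, ERSE (purple) and ERSE-II (green) matches by distance in bases from the start site, hatched where they lie on the other strand, and right, the log2 differences of the same genes from sorted cells with 95% intervals (filled where the adjusted p was under 0.05). Herpud1 with ERSE-II at 52 to 42 bases before the start lies highest at 2.25 and 2.06, and Derl3 with ERSE at 156 to 138 bases lies lowest at -3.97 and -3.61.

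The 36 genes were set beside 9 lists of other genes of the secretory route and of protein folding. The count of each list is to be read beside the share of all genes tested. Those shares were 22.8% higher and 23.2% lower in PGC colonies, and 22.5% and 24.5% in GSC colonies. Of 15 other sensors and regulators 0 rose by limma (0 also at an unadjusted p under 0.05) and 2 fell in PGC colonies, and 3 rose and 2 fell in GSC colonies. Traf2, among those 3, was dim in sorted cells, at least 1.21-fold higher in GSC colonies, and passed the brightness filter only through them. Without it 2 of 14 rose there, with a median of -0.08. Mbtps1, the protease that first cuts ATF6, was lower by 0.60 ± 0.15 in GSC colonies (adjusted p = 0.0166). That fall held relative to other genes only, since without normalization between arrays Mbtps1 differed by 0.10 and did not pass. Thiol oxidoreductases outside the 36 were mixed, with 7 of 19 higher and 5 lower in PGC colonies and 6 higher and 4 lower in GSC colonies. Among them Ero1a, the oxidase that reloads disulfide isomerases, rose by 1.51 ± 0.13 and 1.85 ± 0.13, and Pdia2, an isomerase known from pancreas, fell by 1.29 ± 0.12 and 1.36 ± 0.12 on the log2 scale. Of 25 other ER folding proteins 11 rose and 3 fell in PGC colonies and 14 rose and 3 fell in GSC colonies, led by the prolyl isomerase Ppic at 2.29 ± 0.14 and 2.06 ± 0.14. Another prolyl isomerase, Fkbp14, fell furthest, by 1.70 ± 0.10 and 1.33 ± 0.10 on the log2 scale.

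The collagen folding list had the highest medians of the 9 lists, 0.86 in PGC colonies and 1.10 in GSC colonies. Of its 15 tested genes 9 rose and 1 fell in PGC colonies and 10 rose and 0 fell in GSC colonies (10 also at an unadjusted p under 0.05 by limma, with 0 falls). The rises are 60% and 66.7% of the list, beside 22.8% and 22.5% of all genes tested. P4ha2, which encodes a catalytic partner of P4hb in prolyl hydroxylase, was dim in sorted cells and at least 3.99-fold higher in PGC colonies and at least 10.9-fold higher in GSC colonies (adjusted p = 9.08e-06 and 2.4e-06). It passed the brightness filter only through the colonies, and without it 8 of 14 rose in PGC colonies and 9 of 14 in GSC colonies, with medians of 0.67 and 1.05. PGC colonies held less of it than GSC colonies (-1.45 ± 0.12, adjusted p = 0.000685). P4ha3, the gene of another such partner, fell by 1.22 ± 0.12 on the log2 scale in PGC colonies. Fibroblast and myoid markers rose on the same arrays, with 9 of 10 tested fibroblast markers higher in each kind of colony, and their part was not tested.

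**Figure D5:**
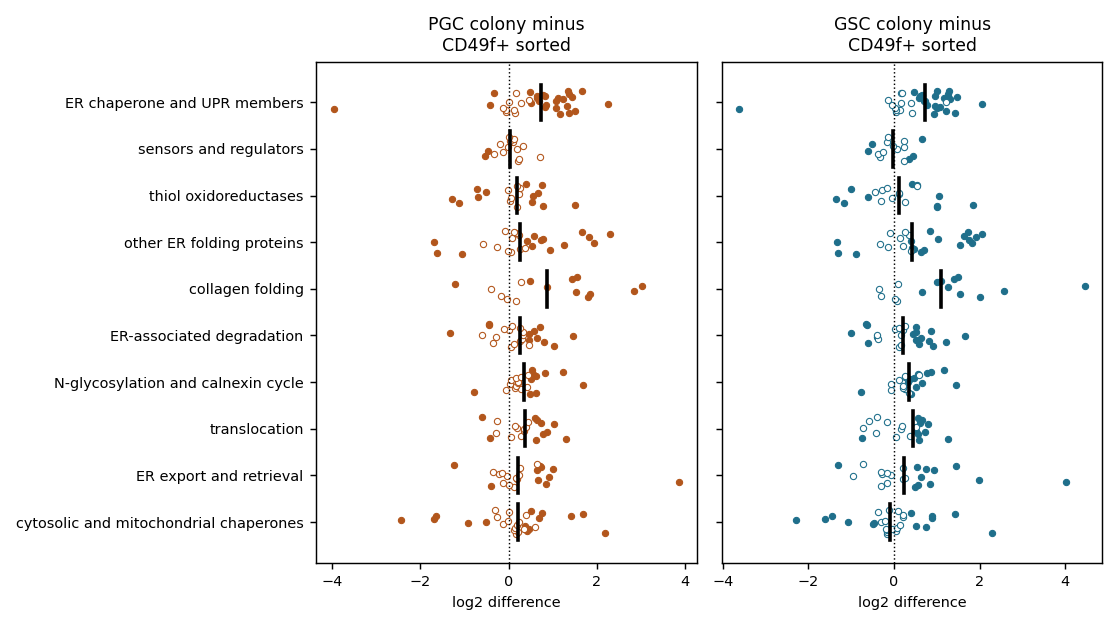
Each point is a tested gene, filled where the adjusted p was under 0.05, by its log2 difference of PGC colonies (left) or GSC colonies (right) from sorted cells, and each thick bar is a list's median. The 34 ER genes have medians of 0.74 and 0.71 and collagen folding 0.86 and 1.10, while the medians of the other 8 lists lie between -0.08 and 0.45.

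Lists of the steps before and after folding had medians of 0.21 to 0.36 in PGC colonies and 0.22 to 0.45 in GSC colonies. Shares that rose were 32% to 40.9% in PGC colonies and 44% to 50% in GSC colonies, beside 22.8% and 22.5% of all genes tested. Shares that fell were 4.55% to 12% and 4.55% to 20%, beside 23.2% and 24.5%. Of 22 genes of N-glycosylation and the calnexin cycle 9 rose and 1 fell in PGC colonies and 11 rose and 1 fell in GSC colonies, with Krtcap2, a subunit of the oligosaccharyltransferase, at 1.69 ± 0.10 and 1.45 ± 0.10. Of 20 translocation genes 8 rose and 2 fell in PGC colonies and 9 rose and 1 fell in GSC colonies, led by the signal peptidase subunit Sec11c at 1.30 ± 0.12 and 1.27 ± 0.12. In ER export and retrieval 8 of 22 rose and 2 fell in PGC colonies and 10 rose and 1 fell in GSC colonies. Kdelr3, one of the receptors that return chaperones with a KDEL tail to the ER, had by far the largest rise there (3.87 ± 0.14, 14.6-fold, and 4.01 ± 0.14, 16.1-fold), and the cargo receptor Tmed7 fell (-1.25 ± 0.11 and -1.30 ± 0.11). In ERAD outside the 36, 8 of 25 rose and 3 fell in PGC colonies and 11 rose and 5 fell in GSC colonies, from the membrane protease Rhbdd1 (1.45 ± 0.16 and 1.66 ± 0.16) down to Svip, an inhibitor of ERAD (-1.34 ± 0.14 and -1.01 ± 0.14). Without 1 gene that was dim in sorted cells and tested through the colonies alone, 7 and 10 of 24 rose.

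Chaperones outside the ER served for comparison. Of 28 cytosolic and mitochondrial chaperones 9 rose and 5 fell in PGC colonies and 7 rose and 6 fell in GSC colonies, with medians of 0.20 and -0.08. In GSC colonies 25% rose and 21.4% fell, near the 22.5% and 24.5% of all genes tested. In PGC colonies 32.1% rose and 17.9% fell, beside 22.8% and 23.2%. Bag3, a cochaperone of Hsp70 induced by heat shock factor, rose by 2.17 ± 0.14 and 2.30 ± 0.14, whereas Hspa1a, the inducible Hsp70 of the cytosol, fell by 2.45 ± 0.13 and 2.29 ± 0.13 on the log2 scale. Between PGC colonies and GSC colonies this list had 4 genes higher, among them Dnajb6 (0.56 ± 0.12, adjusted p = 0.0307), and 2 lower, among them Hspa4l (-0.47 ± 0.12, adjusted p = 0.0446). These are 14.3% and 7.14% of the list, beside 7.08% and 7.98% of all genes tested. In the other lists PGC colonies exceeded GSC colonies in the prolyl hydroxylase relative P3h2 (0.87 ± 0.12) and the TRAP subunit Ssr2 (0.60 ± 0.15). They fell short of GSC colonies in Preb (-1.33 ± 0.12), which starts the coat of vesicles that leave the ER, Nucb2 (-1.06 ± 0.14), Creb3l4 (-0.99 ± 0.13), Creld1 (-0.81 ± 0.12), Uggt1 (-0.65 ± 0.16), the folding sensor of the calnexin cycle, and Herpud2 (-0.57 ± 0.14).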

How the data were processed

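RNA (1 µg of total RNA per array, lower limit on the RNA integrity number 6, per the labels' protocols) was amplified, labelled with Cy5 and hybridised to 6 Phalanx OneArrays. The deposited table gives linear intensity for each of 26423 probes. Values below 0 stood on 4 arrays. The scanner, the background method, the scaling and a genome build were not given in the sources used here, and no detection calls were used. Probes were named through the platform table (21876 with 1 symbol). The brightest probe on average stood for a gene, which mattered for 7 of the 36 genes.

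From the deposited intensity, normexp correction (offset 50), log2 and quantile normalization gave normalized log2 values. Genes reaching an array's 30th percentile (7.82) on at least 2 arrays entered 1 fit of 3 group means in R 4.3.3 with limma 3.58.1 (lmFit, eBayes, 3 residual degrees of freedom, Benjamini-Hochberg over 15459 genes). The median SE was 0.13. A fold from a group under that level on both arrays is given as "at least". The procedure was tested on simulated data with 200 changed genes. Alternatives covered scaling, background, filter, choice of probe, the model and each array left out.

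The 36 genes and the gene lists were chosen with earlier results of these data known. By rule the text could name the 36, Itga6 and, from each of 9 pathway lists and each marker list, the gene with the largest rise and fall per comparison that passed without overlap of groups. Nucb1, Adcy3, Calr4, Ero1b and Pan2 were named after their values were seen. The markers Dazl, Pou5f1, Tex101, Dppa3, Sall4 and Col1a1 were also named outside that rule. Promoters come from RefSeq (GRCm38.p6).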

Additional observations from a re-analysis of the deposited data

How the results depend on the processing

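The 34 tested genes higher than in sorted cells numbered 20 to 26 in PGC colonies and 19 to 31 in GSC colonies under the alternatives that kept all arrays, and 17 to 25 and 16 to 24 with an array left out. Genes lower than in sorted cells were 1 in PGC colonies both without normalization between arrays and with median centring (1 to 3 with an array left out) and 1 to 2 in GSC colonies with an array left out. Between both kinds of colony, 0 were lower in the fit of only the groups compared, and with an array left out 0 to 3 were lower and 0 to 1 higher. Genes called over the whole array, with an array left out, were 5046 to 7051 (PGC colonies) and 5193 to 7762 (GSC colonies) against sorted cells, and 1445 to 2039 between colonies, where it was 1445 without GSC colony replicate 1 and 1527 without PGC colony replicate 2, in place of 2329. Signs turned for Hspa5 in PGC colonies (-1.72 without PGC colony replicate 1, 1.72 without replicate 2). They also turned for Os9 in GSC colonies against sorted cells (1.29 without GSC colony replicate 1, -1.58 without replicate 2) and in PGC against GSC colonies (-0.84 and 2.04). Without normalization between arrays they turned for Edem2 (0.11 in PGC and 0.54 in GSC colonies), Sil1 (0.22 in PGC colonies) and Mbtps1 (0.10 in GSC colonies), on a scale where the median of all genes was 0.42 and 0.47. The same replicate numbers in the labels name no shared animal or day. Differences between replicates correlated at 0.33 for PGC colonies and sorted cells, -0.18 for PGC and GSC colonies and -0.34 for GSC colonies and sorted cells, across genes, so the samples were not taken as paired. With a replicate block 22 and 21 genes were again higher, 2 and 1 lower, Sil1 in PGC colonies did not pass (adjusted p = 0.0594), and 6637, 6804 and 1707 genes were called over the whole array. Signal over background is known only through the testing level, so Atf6 and Ern1 remain without a result. Causes of these shifts were not tested.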

Other observations

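ERSE or ERSE-II letters also stood in promoter windows of 38 genes outside the 36, and 16 of these were tested. In PGC colonies 6 of the 16 were higher and 3 lower than in sorted cells, with a median of 0.10, and in GSC colonies 6 were higher and 4 lower, with a median of -0.10. Of other genes with a window and neither element, 22.5% were higher in PGC colonies and 22.3% in GSC colonies. Over all genes tested 23.2% were lower in PGC colonies and 24.5% in GSC colonies. Nucb1, a calcium-binding protein of the Golgi, was 1.81 ± 0.15 and 1.92 ± 0.15 higher in PGC and GSC colonies, and the adenylyl cyclase gene Adcy3 1.05 ± 0.14 and 1.20 ± 0.14. Krtcap2, given above, is also among the 16 (1.69 ± 0.10 and 1.45 ± 0.10). Calr4, a calreticulin relative, was lower (-1.63 ± 0.11 and -1.30 ± 0.11), as was Ero1b, the second ER oxidase (-1.13 ± 0.12 and -1.18 ± 0.12), which ran opposite to its relative Ero1a. Pan2 fell furthest of the 16 in GSC colonies (-1.58 ± 0.24, adjusted p = 0.00214) and did not pass in PGC colonies (-0.34 ± 0.24, adjusted p = 0.296).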
